A study of Mus musculus with 15 samples.

Results

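Colon tissue lying next to a tumour in mice with both an APC and an Olfm4 mutation was compared with colon of wild type mice, gene by gene. The comparison uses 6 of the 15 arrays of the study. They are the 3 arrays whose titles give the double mutant genotype APC+/-/Olfm4-/- together with the letter N, called adjacent tissue here, and the 3 arrays whose genotype label reads wild type (APC+/+/Olfm4+/+). The other 9 arrays hold 3 each of APC mutant colon (APC+/-, Olfm4 intact), Olfm4 mutant colon (Olfm4-/-, APC intact) and double mutant tumour. They enter the model to estimate the spread and are otherwise named where a result needs them. All mice were males aged 3 months on a hybrid background of C57BL/6 and 129, littermates matched for age and sex. The labels do not name the APC allele or say how far from a tumour the adjacent pieces were taken. The study text speaks of 3 mice per category, while the 3 adjacent titles carry 2 animal numbers, with adjacent replicates 2 and 3 from the same animal. The 3 tumour titles carry the same 2 animal numbers, and the main fit treats all arrays as independent. The p-values speak only to how these samples vary among themselves, and some of that variation may be technical.

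Apc is a scaffold of the complex that marks beta-catenin for breakdown, so losing it releases Wnt signalling, the pathway that keeps crypt stem cells dividing. Mice with 1 defective copy develop intestinal tumours. Olfm4 is a secreted glycoprotein made by crypt cells and by neutrophils, and it has been described as binding NOD proteins and cathepsins and as restraining NF-kappaB. The colon wall sampled here holds absorptive, goblet and enteroendocrine epithelium above a stroma of muscle, nerve, vessel and immune cells.

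The values are probe set summaries on a log2 scale, and 1 probe set per gene, the one with the highest mean over the 15 arrays, stands for each of 18193 genes. Differences are adjacent minus wild type in log2 units, each the mean of 3 arrays less the mean of 3, with the standard error (SE) of that difference. A gene is said to have risen or fallen where limma gave an adjusted p under 0.05 (Benjamini-Hochberg over all genes). By that rule 3216 genes (17.7%) rose and 1840 (10.1%) fell, and at a fold change of at least 2 these numbers were 984 (5.41%) and 750 (4.12%). The 3 adjacent arrays did not overlap the 3 wild type arrays for 7297 genes (40.1%), 4758 of them (26.2%) higher and 2539 (14%) lower. Every count of list members below is to be read against these shares, and every list median against the median of all genes, 0.13.

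The arrays differed in a way that bears on all of these counts. Control probe sets at the 3′ and 5′ ends of 4 bacterial RNAs added to each sample differed by 1.89, 2.01 and 2.06 in the wild type arrays and by 3.94, 3.91 and 4.45 in the adjacent arrays. The adjacent arrays are thus higher with no overlap, by 2.11 (1.99 ± 0.0831 against 4.10 ± 0.300, SD, n = 3; exact permutation p = 0.1, 2-sided, the smallest possible for 3 against 3). The same difference for Gapdh was 0.589 ± 0.0428 in wild type and 3.97 ± 0.404 in adjacent tissue (SD, n = 3), and for Actb 1.15 ± 0.136 and 3.40 ± 0.241. Array numbers in the labels run in blocks by group, wild type 1 to 3 and adjacent 10 to 12. The labels do not say what these numbers stand for, and the numbers and the groups cannot be told apart. With the bacterial 3′ minus 5′ difference as a covariate limma called 0 genes (606 at an unadjusted p under 0.05). Over the genes called without the covariate, the median absolute difference was 0.370 with it and 0.824 without it, the median SE 0.506 instead of 0.19, and 76.9% of these genes kept their sign. The part of the 3′ to 5′ difference in any one gene's change was not tested.

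**Figure D1:**
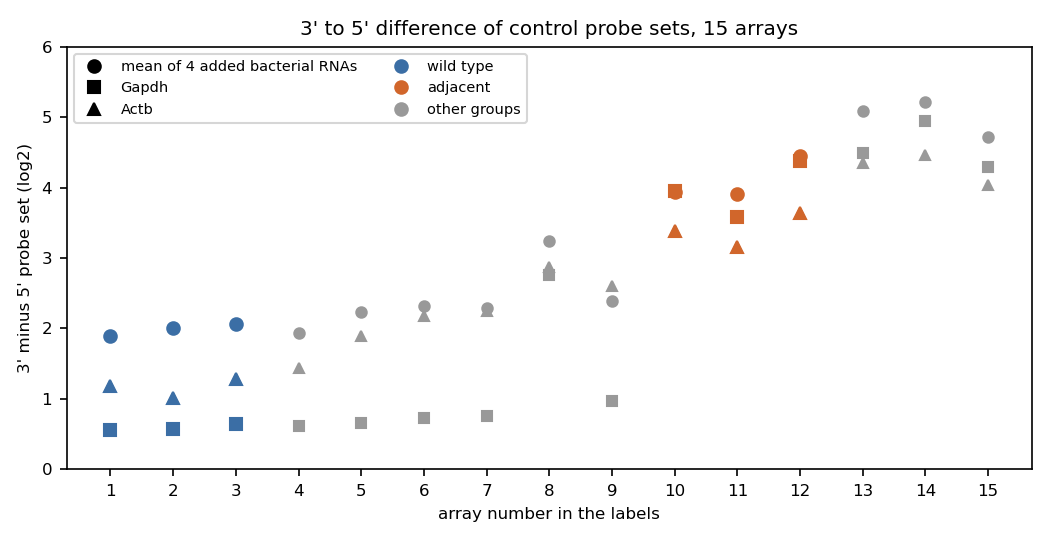
The log2 difference between 3′ and 5′ control probe sets (vertical axis) is plotted against the array number in the labels, for the mean of 4 added bacterial RNAs (circles), Gapdh (squares) and Actb (triangles), with wild type in blue, adjacent tissue in orange and the other groups in grey. Bacterial RNA values of the 3 adjacent arrays lie between 3.91 and 4.45, above the 3 wild type arrays at 1.89 to 2.06.

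The usual markers of colon epithelium were present, and they did not all behave alike. Epcam (-0.15), Cdh1 (-0.04), Krt8 (0.05) and Vil1 (-0.01), which mark epithelium, did not pass the test (limma adjusted p from 0.21 to 0.97), and neither did the mature colonocyte markers Car4 (-0.11) and Slc26a3 (-0.30). The epithelial keratins Krt18 and Krt19 fell by 0.51 each (adjusted p = 0.017 and 0.011). Krt18 lost its call without wild type replicate 2 (0.072) or 3 (0.050), adjacent replicate 2 (0.068) or adjacent replicate 3 (0.059), and Krt19 without adjacent replicate 3 (0.055). Further genes of epithelial identity and of colonocytes that fell are given with their lists. Of the exocrine pancreas list, 13 of 15 measured genes did not pass, among them Cpa1 (-0.02), which defines that tissue. These are bulk samples, so fewer cells of a type and less RNA per cell cannot be told apart anywhere below.

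4 short stretches of genome are shown first because they belong to the neighbouring gene pairs among the largest rises, S100a8 with S100a9 and Pnliprp1 with Pnliprp2. S100a8 and S100a9 encode the subunits of calprotectin, an abundant protein of neutrophils and inflamed epithelium, and the other pair encodes lipases related to pancreatic lipase. Each stretch is the 250 bases before the annotated start in RefSeq, build GRCm38.p6, 5′ to 3′ on the gene's strand. They lie at chr3:90668821-90669070 (plus strand, S100a8), chr3:90695722-90695971 (minus strand, S100a9), chr19:58728637-58728886 (plus strand, Pnliprp1) and chr19:58759473-58759722 (plus strand, Pnliprp2). Capitals mark matches on either strand to TATAAA (the TATA box), TTNCNNAA (a loose form of the site of C/EBP factors) or CTTTGA (a core of the TCF/LEF site).
S100a8: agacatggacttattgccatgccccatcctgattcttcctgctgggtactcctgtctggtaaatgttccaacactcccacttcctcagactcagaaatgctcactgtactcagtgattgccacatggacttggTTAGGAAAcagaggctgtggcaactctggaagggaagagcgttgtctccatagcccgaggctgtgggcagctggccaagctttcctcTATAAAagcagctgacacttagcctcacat
S100a9: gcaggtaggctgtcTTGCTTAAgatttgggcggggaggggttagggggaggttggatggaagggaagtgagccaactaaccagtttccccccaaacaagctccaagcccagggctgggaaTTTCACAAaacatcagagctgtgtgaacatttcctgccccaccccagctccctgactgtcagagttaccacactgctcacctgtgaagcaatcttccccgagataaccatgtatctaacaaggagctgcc
Pnliprp1: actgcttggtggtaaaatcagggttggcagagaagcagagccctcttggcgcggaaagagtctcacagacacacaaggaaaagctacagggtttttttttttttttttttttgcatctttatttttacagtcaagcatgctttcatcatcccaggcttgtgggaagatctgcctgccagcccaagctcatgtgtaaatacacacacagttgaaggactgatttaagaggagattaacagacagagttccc
Pnliprp2: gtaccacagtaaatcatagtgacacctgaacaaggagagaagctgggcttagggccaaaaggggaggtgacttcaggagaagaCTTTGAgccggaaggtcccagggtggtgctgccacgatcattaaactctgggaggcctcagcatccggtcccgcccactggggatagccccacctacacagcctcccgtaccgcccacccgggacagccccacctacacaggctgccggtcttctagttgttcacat
The S100a8 stretch holds a TATA box 30 bases before the start and a C/EBP-like match 117 bases before it. In the S100a9 stretch C/EBP-like matches begin 236 and 130 bases before the start, and in the Pnliprp2 stretch a TCF/LEF core begins 167 bases before it. None of these letters occur in the Pnliprp1 stretch. Over 32851 such stretches of all genes, 12.4% hold TATAAA, 36.8% TTNCNNAA and 13.8% CTTTGA, and a match describes the letters, not a bound site.

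The genes with the mutations were looked at first. Olfm4 read 3.01, 3.14 and 3.07 in the wild type arrays and 3.17, 2.97 and 3.05 in the adjacent arrays. These values overlap (difference -0.01, SE 0.105, limma adjusted p = 0.97) and lie near the lowest value of the table, 2.56, in both groups, so this probe set does not check the knockout. Apc has 4 probe sets, and they did not move together. The kept one, 1435543_at, read 10.20, 10.04 and 10.31 in wild type and 10.99, 10.84 and 10.65 in adjacent tissue, higher with no overlap (0.64, SE 0.121, limma adjusted p = 0.0024 over all probe sets). Another, 1420956_at, was also higher by 0.41 (adjusted p = 0.028). 1420957_at fell from 8.56, 8.58 and 8.13 to 6.60, 6.39 and 6.28, a difference of -2.0 (SE 0.273, adjusted p = 0.00035), and 1450056_at was lower by -0.53 (adjusted p = 0.019). Where these probe sets lie along the Apc transcript is not given in the sources used here, so no direction is given for Apc RNA as a whole and none of them checks the allele.

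The largest rise was in Sdr16c6, a short-chain dehydrogenase of the family that oxidises retinol. It read 4.64, 3.81 and 4.43 in the wild type arrays and 8.30, 9.53 and 9.21 in the adjacent arrays. The groups lie far apart, a 26.4-fold difference (4.72, SE 0.444, limma adjusted p = 0.00024). Gp1bb, a subunit of the platelet receptor for von Willebrand factor, read 6.12, 6.23 and 5.65 against 8.74, 9.36 and 8.90, and both of its probe sets rose (3.00, SE 0.281, adjusted p = 0.00024, for the kept one). Itgb8, the integrin chain that frees latent TGF-beta, read 6.62, 6.18 and 7.33 against 9.80, 8.95 and 9.36 (2.66, SE 0.400, adjusted p = 0.00076). In these genes all 3 adjacent arrays, including the pieces of the shared animal, lie more than 1 log2 unit above the highest wild type array.

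Another set of leading genes rose unevenly over the adjacent arrays. S100a8 read 5.66, 6.57 and 6.90 in wild type and 8.18, 9.66 and 12.53 in adjacent replicates 1, 2 and 3 (3.75, SE 0.922, limma adjusted p = 0.0099). Its partner S100a9 read 5.74, 7.29 and 7.52 against 8.44, 9.29 and 12.35 (3.17, SE 0.964, adjusted p = 0.027). Wif1, a secreted Wnt inhibitor, read 4.36, 3.98 and 4.16 against 6.15, 5.95 and 9.89 (3.16, SE 0.728, adjusted p = 0.0070). Adjacent replicate 3 stands highest in all 3 genes, well above the piece from the same animal. The lipase-related genes were likewise highest in that array, with Pnliprp1 at 7.05, 5.60 and 6.05 against 9.86, 8.67 and 12.33 (4.05, SE 0.677, adjusted p = 0.0013). Pnliprp2 read 8.20, 8.95 and 8.24 against 10.84, 10.56 and 13.03 (3.01, SE 0.479, adjusted p = 0.0010), and its second probe set rose by 2.82. Acod1, which makes the antimicrobial metabolite itaconate in activated macrophages, read 4.42, 4.57 and 5.68 against 6.75, 7.33 and 8.62 (2.68, SE 0.537, adjusted p = 0.0034). Of these genes only S100a9 lost its call when a single array was left out (adjusted p = 0.11 without adjacent replicate 3, 0.085 without wild type replicate 1 and 0.050 without wild type replicate 2). With animal as a random block its adjusted p was 0.051.

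Clca4b, a member of the calcium-activated chloride channel regulator family, split the adjacent arrays another way. It read 8.29, 7.87 and 8.11 in wild type and 9.60, 12.33 and 12.72 in adjacent tissue, so that the piece of the first animal was the lowest and the pieces of the second stood together (3.46, SE 0.704, limma adjusted p = 0.0036). Ptk6, a tyrosine kinase of differentiating gut epithelium, was also lowest in the piece of the first animal (7.04, 7.07 and 7.50 against 8.20, 9.64 and 9.61), and both of its probe sets rose (1.95, SE 0.341, adjusted p = 0.0016, for the kept one). Tc2n, Klhl17, Mettl22, Btbd11 and Lynx1 also had several probe sets that rose and none that fell, with kept differences from 1.40 (Lynx1) to 2.19 (Tc2n). Klhl17, an actin-binding adaptor, was the tightest of them, at 9.98, 9.84 and 9.60 against 11.86, 11.96 and 11.85.

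Ccnb1ip1, a ubiquitin ligase needed for meiotic crossing over, read 3.96, 3.79 and 4.85 in wild type and 7.16, 7.33 and 7.74 in adjacent tissue (3.21, SE 0.377, limma adjusted p = 0.00032). Its neighbour in the RefSeq gene order, Ttc5, named after its values were seen, also rose (2.13, adjusted p = 0.0031 over all probe sets). Both lie on the same chromosome as Olfm4, as does Ang below, and whether this position bears on their changes was not tested.

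**Figure D2:**
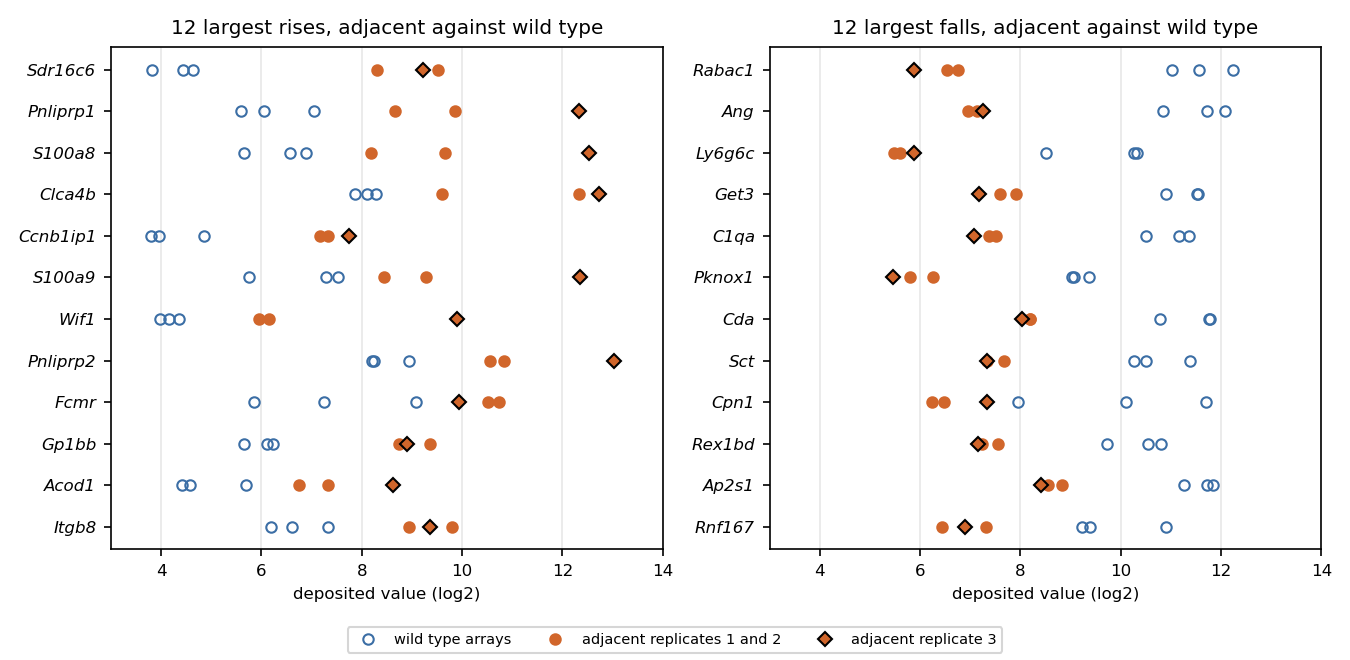
Deposited log2 values (horizontal axis) of the 12 genes with the largest rises (left) and the 12 with the largest falls (right) among genes that passed the test without overlap, with open blue circles for the 3 wild type arrays, orange circles for adjacent replicates 1 and 2 and diamonds for adjacent replicate 3. S100a8, S100a9, Wif1, Pnliprp1 and Pnliprp2 are highest in adjacent replicate 3. The absence of overlap in both panels follows from how the genes were chosen.

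The largest fall was in Rabac1, which encodes a membrane acceptor of prenylated Rab proteins. It read 12.24, 11.57 and 11.02 in the wild type arrays and 6.54, 6.76 and 5.88 in the adjacent arrays, a 37.2-fold difference with a wide gap between the groups (-5.22, SE 0.640, limma adjusted p = 0.00034). Ang, the ribonuclease angiogenin, read 11.73, 12.08 and 10.84 against 6.96, 7.13 and 7.26 (-4.43, SE 0.666, adjusted p = 0.00076), and all 3 of its probe sets fell. Get3, the ATPase that delivers tail-anchored proteins to the endoplasmic reticulum, read 11.54, 11.51 and 10.91 against 7.60, 7.91 and 7.17 (-3.76, SE 0.389, adjusted p = 0.00025). These falls were alike in the pieces of both animals.

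Ly6g6c, of the Ly6 family of surface proteins, fell in all 3 of its probe sets, the kept one from 8.50, 10.32 and 10.26 to 5.48, 5.60 and 5.89 (-4.04, SE 0.601, limma adjusted p = 0.00074). The homeobox gene Pknox1 also fell in 3 of 3 probe sets (-3.32, SE 0.373, adjusted p = 0.00029 for the kept one). Cda, which deaminates cytidine, read 11.77, 11.76 and 10.78 against 8.20, 8.18 and 8.03 (-3.30, SE 0.376, adjusted p = 0.00030). Sct, the hormone secretin, read 10.51, 11.38 and 10.26 against 7.34, 7.68 and 7.33 (-3.26, SE 0.418, adjusted p = 0.00040). Wild type replicate 3 was the lowest of its group for both Cda and Sct. The remaining large falls were Cpn1 (-3.24), Rex1bd (-3.05), Ap2s1 (-3.01) and Rnf167 (-2.96).

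Ptms, Map2k3, St3gal3, S100a1 and Prss32 each had at least 2 probe sets that fell and none that rose. For Prss32, a tethered serine protease, the kept probe set differed by -0.98 (13.50, 13.08 and 13.11 against 12.16, 12.52 and 12.05), while the other differed by -4.53 (12.30, 11.51 and 11.76 against 7.03, 7.72 and 7.22). In Prss32 the probe sets thus moved the same way but differed by several log2 units in how far they moved. Map2k3, a kinase upstream of p38, gave -1.32 and -3.38. St3gal3 was alike in its 2 probe sets, with -2.25 in the kept one and a mean of -2.26 over both.

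C1qa, 1 of the 3 chains of the complement recognition protein C1q made by macrophages, read 11.37, 11.16 and 10.50 in wild type and 7.52, 7.38 and 7.07 in adjacent tissue (-3.69, SE 0.482, limma adjusted p = 0.00041). The other chains come from neighbouring genes and did not fall. C1qb rose in its kept probe set (13.07, 13.10 and 13.16 against 13.73, 13.55 and 13.47, difference 0.47, SE 0.101, adjusted p = 0.0046), and its others gave 0.45 (adjusted p = 0.0098 over all probe sets) and -0.23 (0.44). C1qc, named after its values were seen, differed by -0.12 (adjusted p = 0.58) with overlapping arrays. Among the other macrophage and dendritic cell genes, Csf1r (0.90), the growth factor receptor that defines macrophages, and Adgre1 (0.60, adjusted p = 0.013), the F4/80 antigen, rose. Flt3 (-0.78, adjusted p = 0.044) and Lyz2 (-0.67, 0.022) fell. Csf1r has 3 probe sets, 2 of which rose and 1 fell. Over the list, 4 of the 19 measured genes of that list rose and 3 fell, with a median of -0.03. Without adjacent replicate 2, 3 genes of the list rose and 1 fell, and without wild type replicate 3, 4 and 1.

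**Figure D3:**
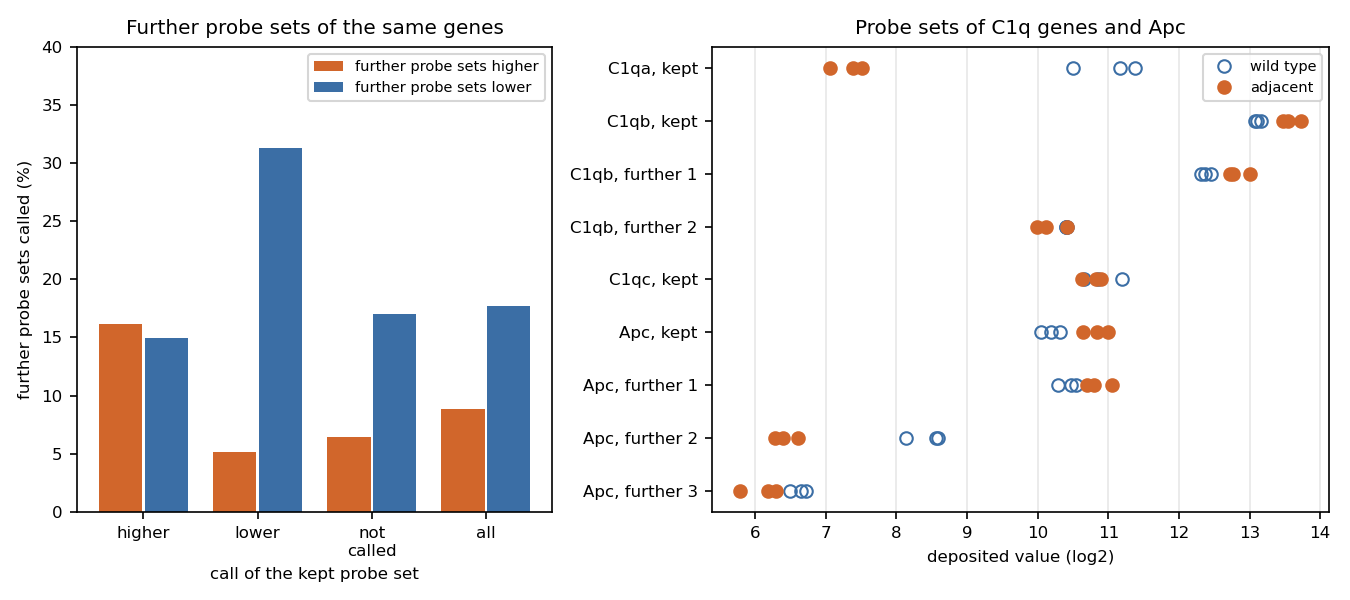
Left, percentage of further probe sets called higher (orange) or lower (blue) in adjacent tissue, by the call of the kept probe set of the same gene; right, deposited log2 values of each probe set of C1qa, C1qb, C1qc and Apc in the 3 wild type (open) and 3 adjacent (filled) arrays. Further probe sets of genes that rose were called higher in 16.2% and lower in 14.9%, and C1qa fell by 3.69 while the kept probe set of C1qb rose by 0.47.

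Probe sets of 1 gene often went opposite ways. The calls over all 45037 probe sets that are not controls were almost even, 5334 (11.8%) higher and 5411 (12%) lower. Of the 2144 genes that rose and have further probe sets, 578 (27.0%) had a further probe set that also rose and 506 (23.6%) had one that fell. Of the 862 that fell, 356 (41.3%) had a further one that fell and 70 (8.12%) one that rose. Further probe sets, dimmer than the kept ones by the choice, were called higher in 8.80% and lower in 17.7% of cases. In all 501 genes had at least 2 probe sets that rose and none that fell, 620 had at least 2 that fell and none that rose, and 697, 7.74% of genes with more than 1 probe set, had calls both ways. With the mean of all probe sets standing for a gene, 2207 genes rose and 2292 fell.

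The widest such gap was in Gmfb, glia maturation factor beta, where 1 probe set fell from 8.84, 9.34 and 8.83 to 4.68, 4.74 and 4.56 (-4.34, limma adjusted p = 8.0e-07 over all probe sets) and the kept one differed by 0.51. The adjusted p of that 0.51, 0.044 over all genes, did not hold when adjacent replicate 3 (0.11), adjacent replicate 2 (0.073), adjacent replicate 1 (0.098), wild type replicate 1 (0.15) or wild type replicate 2 (0.12) was left out. Pla2g2f, a secreted phospholipase, gave -3.19 in 1 probe set and 1.47 in the other, and the rise lost its call without wild type replicate 2 (adjusted p = 0.084), adjacent replicate 2 (0.071) or adjacent replicate 3 (0.081). Sox4, a transcription factor of progenitor cells, rose in the kept probe set (10.47, 9.31 and 10.81 against 11.24, 11.48 and 11.91) and fell in 4 others, by up to 3.13. Smarcc1, a core subunit of the BAF chromatin complex, rose in 2 of 4 probe sets (2.03 for the kept one) and fell in the other 2, one of them by 2.30. The kinase Braf (0.87 and -3.12) and Ubfd1 (1.24 and -2.88) complete the 6 genes with the widest gaps. For these genes the choice of probe set sets the direction. Among other named genes only 1 of 2 probe sets was called for Cpn1, Tert, Gli2, Isl1, Nfkb2, Slc9a3, Prf1, Ddit3, Ccl25 and Gsta3. It was 1 of 3 for Tnfsf13b and Ccl28, 1 of 4 for Nkd1 and 1 of 5 for Ern1.

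The calls also followed the genomic span of the genes in RefSeq (18032 genes matched). The median span was 31.5 kb for genes that rose, 14.3 kb for genes that fell and 20.3 kb for all. Among the genes brighter than the median gene, 14% of those spanning under 10 kb rose and 26.3% fell. Of those over 50 kb, 31.9% rose and 8.39% fell. Among the dimmer genes the shares were 8.09% and 4.81% under 10 kb and 16% and 4.12% over 50 kb, so the rise with span was seen in brighter and dimmer genes, and the fall with span mainly in the brighter ones.

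**Figure D4:**
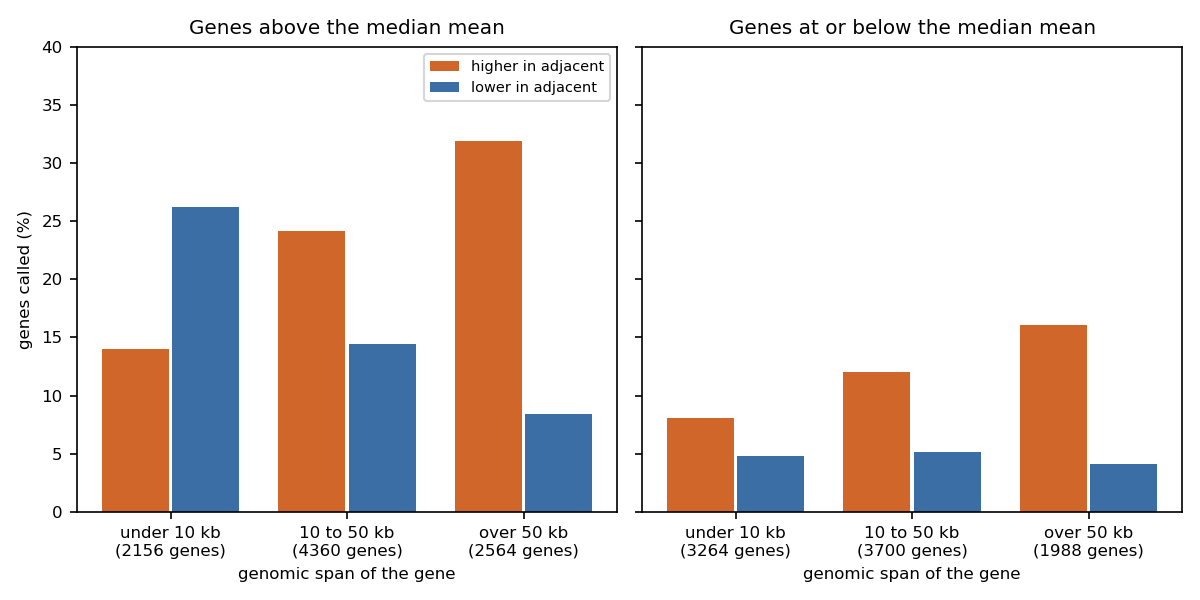
Percentage of genes called higher (orange) or lower (blue) in adjacent tissue, for 3 classes of genomic span, in genes with a mean value above (left) and at or below (right) the median gene. On the left the share that rose goes from 14% under 10 kb to 31.9% over 50 kb, and the share that fell from 26.3% to 8.39%.

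Wnt target genes were the pathway closest to the APC mutation. Of 31 measured, 9 rose and 2 fell, with a median difference of 0.70. With the mean of all probe sets 7 rose and 3 fell (median 0.40), and without wild type replicate 2, 6 and 2 (0.62). With the bacterial 3′ minus 5′ difference as a covariate 0 were called, and the list median was 0.080. Beside Wif1, described above, Apcdd1, a membrane inhibitor of Wnt receptors, read 8.62, 7.65 and 7.60 in wild type and 9.61, 8.94 and 11.29 in adjacent tissue (1.99, SE 0.466, limma adjusted p = 0.0077), with 3 of its 6 probe sets higher and none lower. Lef1, a transcription factor that carries the signal, read 7.03, 7.14 and 8.04 against 8.65, 9.15 and 9.48 (1.69, SE 0.312, adjusted p = 0.0022). Znrf3, which removes Frizzled receptors from the surface, read 9.09, 8.52 and 8.56 against 9.64, 10.01 and 10.34 (1.27, SE 0.229, adjusted p = 0.0019). Lef1 and Znrf3 each rose in 1 of 2 probe sets, with mean differences over both of 0.97 and 0.58. Apcdd1 is again highest in adjacent replicate 3, while Lef1 and Znrf3 are more even.

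Several standard readouts of the pathway did not pass the test. Axin2 read 10.57, 10.57 and 11.01 in wild type and 10.35, 10.50 and 10.91 in adjacent tissue (-0.13, limma adjusted p = 0.63), and Lgr5 6.36, 5.99 and 5.72 against 5.11, 5.72 and 6.05 (-0.40, 0.22). Both overlap between groups, as do Myc (0.15), the cell cycle gene Ccnd1 (0.19) and the stem cell factor Ascl2 (1.62, adjusted p = 0.098), whose wild type arrays spread from 5.40 to 8.99. The 2 Wnt targets that fell were Cdx1 (-1.20, adjusted p = 0.00066), a homeobox gene of intestinal identity, and Sox9 (-1.01, adjusted p = 0.0093), a crypt transcription factor. Sox9 fell in 1 of its 3 probe sets, with a mean difference over them of -0.33. Nkd1, another inhibitor, rose by 1.35 (adjusted p = 0.044), but not without adjacent replicate 3 (0.18), wild type replicate 3 (0.16) or wild type replicate 2 (0.12), nor with animal as a random block (0.093). Without adjacent replicate 3 the Wnt target counts were 6 higher and 2 lower, with a median of 0.41, and with animal as a random block 5 and 2. By array, the median of the list relative to the wild type mean was 0.62, 0.19 and 1.11 in adjacent replicates 1, 2 and 3, and from -0.12 to 0.07 in wild type.

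Among the 24 genes of the destruction complex and of TCF transcription, 6 rose and 2 fell (median 0.18). This balance followed the choice of probe set, with 2 higher and 6 lower (median -0.06) for the mean of all probe sets and 6 and 8 for the most variable one. Amer1, a membrane adaptor that recruits Apc, read 10.05, 9.77 and 9.93 against 10.98, 11.06 and 11.03 (1.11, SE 0.123, limma adjusted p = 0.00029), and the groups are far apart in this probe set. Only 1 of the 2 probe sets of Amer1 was called, and the mean difference over both was 0.43. Axin1, the scaffold of the complex, fell in both of its probe sets (-0.79, SE 0.148, adjusted p = 0.0024 for the kept one). Pygo2, a coactivator of beta-catenin with 1 probe set, also fell (-1.10, adjusted p = 0.00093). Beta-catenin itself, Ctnnb1, differed by 0.01 (13.70, 13.57 and 13.72 against 13.65, 13.63 and 13.73) in its kept probe set, but by -1.10 as the mean of its probe sets. Tcf7l2, the main TCF factor of the gut, differed by -0.42 in its brightest probe set (adjusted p = 0.095) and fell in its 3 others, by as much as from 8.74, 8.19 and 8.63 to 3.55, 4.09 and 4.23. Tcf7l1 rose in 1 probe set (0.92, adjusted p = 0.0098) and fell in the other.

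Of 20 stem cell genes 7 rose and 2 fell (median 0.34), led by Clca4b. With the mean of all probe sets 5 were higher and 4 lower (median 0.08), and with the most variable one 5 and 6. Lrig1, a brake on growth factor receptors in crypt base cells, read 9.85, 9.22 and 9.77 against 10.52, 10.60 and 10.52 (0.93, SE 0.174, limma adjusted p = 0.0023). Tert, the telomerase subunit, rose by 0.82 (adjusted p = 0.0011) at a low level, 4.20, 4.05 and 4.00 against 4.83, 4.93 and 4.96. Without adjacent replicate 3 or wild type replicate 2 the list had 3 genes higher and 2 lower, and without adjacent replicate 1, adjacent replicate 2 or wild type replicate 3 it had 5 or 6 higher and 1 lower. Among 31 cell cycle genes 4 rose and 2 fell (median 0.14), and Mki67 (-0.17, adjusted p = 0.65), the usual mark of dividing cells, did not pass. Cdc20, which starts anaphase, rose by 1.51 (adjusted p = 0.0034), and Plk1, a mitotic kinase, fell by 1.13 (0.0069). Without adjacent replicate 2 or 3 the list had 1 gene higher and 1 lower, and without wild type replicate 2, 2 and 1. The counts were 2 and 3 without wild type replicate 3, and 4 and 1 without adjacent replicate 1. They were 2 and 1 with animal as a random block, and 1 and 2 for the mean of all probe sets.

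In the BMP, Notch and Hedgehog pathways, which set the crypt axis, 9 of 34 genes rose and 4 fell (median 0.39). Id1, a direct target of BMP signals, read 11.88, 12.00 and 11.94 in wild type and 9.34, 9.26 and 8.78 in adjacent tissue, a 7.03-fold fall (-2.81, SE 0.436, limma adjusted p = 0.00090). Smad5, a transducer of the same signals, fell by 1.77 (SE 0.309, adjusted p = 0.0016), in 2 of 3 probe sets. The ligand Bmp7 rose in the kept probe set (6.03, 7.20 and 7.36 against 8.61, 8.05 and 8.51, difference 1.53, adjusted p = 0.0076), and another of its probe sets fell. On the Hedgehog side Smo, the signalling receptor, rose in 2 of 3 probe sets (8.13, 7.73 and 7.58 against 9.06, 9.37 and 9.61, difference 1.53, adjusted p = 0.00055), and the effector Gli2 rose by 1.09 (0.011). The list had 4 or 5 rises and 2 or 4 falls when any one array other than wild type replicate 1 was left out, and 5 rises and 5 falls for the mean of all probe sets.

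B cell genes had the highest median of the lists described here, 1.20, with 8 of 17 genes higher and none lower. Fcmr, the Fc receptor for IgM, read 7.24, 5.85 and 9.09 in wild type and 10.73, 10.51 and 9.94 in adjacent tissue (3.00, SE 0.668, limma adjusted p = 0.0059). Cd22, an inhibitory receptor, averaged 7.73 ± 0.825 in wild type and 9.85 ± 0.367 in adjacent tissue (SD, n = 3) without overlap (2.12, SE 0.368, adjusted p = 0.0016). Only 1 of the 2 probe sets of Cd22 was called, and the mean difference over both was 1.06. Cr2, the complement receptor of follicular B cells, read 5.50, 5.06 and 6.97 against 8.27, 8.01 and 7.58 (2.11, SE 0.478, adjusted p = 0.0064). In each the wild type arrays spread widely, with replicate 3 highest, and the adjacent arrays are tight, with replicate 3 lowest. The defining markers Ms4a1 (6.96, 4.64 and 9.76 against 10.22, 10.10 and 9.41) and Cd79a (0.47, adjusted p = 0.45) overlap and did not pass. The list median relative to the wild type mean was -0.32, -0.63 and 0.99 in wild type replicates 1 to 3 and 1.51, 1.46 and 0.76 in the adjacent arrays. Leaving out wild type replicate 2 left 3 genes higher, wild type replicate 1 left 5, adjacent replicate 1 left 5 and adjacent replicate 2 left 4. H2-Ob (2.51, adjusted p = 0.014), an MHC class II chaperone chain of B cells, was among those lost without wild type replicate 2 (0.061).

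Of 22 T and NK cell genes 3 rose and 1 fell (median 0.24). Il7r, the interleukin 7 receptor, read 8.50, 8.73 and 9.35 against 10.82, 10.14 and 9.90 (1.43, SE 0.248, limma adjusted p = 0.0016), and Thy1 rose by 1.18 (0.0015), while Prf1, the pore protein of killer cells, fell by 1.26 (0.00065). Cd3e, a defining marker of T cells, rose by 1.12, and the other defining marker, Cd3g, was not among the 3 genes that rose. The remaining 18 measured genes of the list did not pass. Without wild type replicate 1 the list had 2 genes higher and 1 lower (median -0.083). In the plasma cell list 2 of 13 genes rose and 1 fell. The fall was Mzb1, a chaperone of antibody assembly (-1.28, adjusted p = 0.0043). The rises were Prdm1 (0.67) and Ighg3, which had 2 of 4 probe sets higher and 1 lower. The other defining markers, Jchain and Igha, were not among these genes. That list had 4 genes higher and 1 lower without wild type replicate 3, without wild type replicate 1 it had 1 and 2, and without wild type replicate 2 or any adjacent array 1 and 1.

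The neutrophil list had 3 of 16 genes higher and 2 lower (median 0.37). S100a8 and S100a9 led it and Mpo, the granule peroxidase, was among the falls (-1.06, limma adjusted p = 0.015), but not without wild type replicate 2 (0.060) or adjacent replicate 1 (0.059). Cxcr2, the chemokine receptor that defines neutrophils, read 3.26, 3.45 and 3.57 against 3.92, 3.38 and 3.75, near the bottom of the scale with overlap (0.26, adjusted p = 0.72). By array the median of the list relative to wild type was 0.22, 0.07 and 1.0 in adjacent replicates 1, 2 and 3. Without adjacent replicate 3 the counts were 1 higher and 2 lower, without wild type replicate 1, 1 and 1, and without wild type replicate 2, 1 and 0. Without adjacent replicate 1 they were 5 and 0, and without adjacent replicate 2 or with animal as a random block, 2 and 1.

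Of 32 cytokine and chemokine genes 7 rose and 1 fell (median 0.34). Cxcl2, which attracts neutrophils, read 3.65, 3.77 and 3.67 in wild type and 4.78, 4.69 and 8.30 in adjacent tissue (2.23, SE 0.692, limma adjusted p = 0.030). Adjacent replicate 3 again stands far above the others, and the call was lost without wild type replicate 1 (0.058), 2 (0.066) or 3 (0.065), and with animal as a random block (0.092). Tnfsf13b, the B cell survival factor BAFF, was even over the arrays, at 9.50, 9.66 and 9.26 against 10.89, 10.57 and 10.50 (1.18, SE 0.154, adjusted p = 0.00041). Ccl28, an epithelial chemokine for antibody-secreting cells, rose by 0.97 (0.0015), and Ccl25, which draws lymphocytes to the small intestine, fell by 1.36 (0.0015). Tnf (0.06, adjusted p = 0.86) and Il1b (1.04, 0.41) overlap between groups. Leaving out wild type replicate 1 gave 3 genes higher and 4 lower, wild type replicate 2 gave 4 and 1, adjacent replicate 1 gave 5 and 2, and adjacent replicate 3 gave 3 and 1. With animal as a random block, which allows for the animal shared by adjacent replicates 2 and 3, the counts were 3 higher and 1 lower.

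Among 18 genes of NOD and NF-kappaB signalling, the pathway Olfm4 has been linked to, 5 rose and 2 fell (median 0.49). Rela, a DNA-binding subunit of NF-kappaB, read 10.39, 10.57 and 10.33 in wild type and 8.96, 9.08 and 8.69 in adjacent tissue (-1.52, SE 0.184, limma adjusted p = 0.00032), and the subunit Relb fell by 1.07 (SE 0.245, adjusted p = 0.0068), while the subunit Nfkb2 rose by 0.87 (0.0068). The rises included the kinase complex, with Ikbkb at 11.40, 11.50 and 11.48 against 12.14, 12.04 and 12.13 (0.64, SE 0.102, adjusted p = 0.0011) in the kept probe set. Only 1 of the 5 probe sets of Ikbkb was called, and the mean difference over them was 0.073. Ikbkg, the regulatory subunit of the complex, rose by 1.37 (adjusted p = 0.00047) in the kept probe set, with 2 of 6 probe sets higher and 1 lower. The inhibitor Nfkbie rose by 1.06 (0.0073), in both of its probe sets. With the mean of all probe sets the list had 4 rises and 3 falls (median 0.10). Of 14 cathepsins, the proteases that Olfm4 has been described to bind, 1 rose and 4 fell (median 0.08, or -0.16 with the mean of all probe sets). The falls were Ctsz (-0.66, adjusted p = 0.0015), in all 3 of its probe sets, Ctsd (-1.08, 0.0032), Ctsa (-1.05, 0.0025), in both, and Ctsf (-1.07, 0.0070), in 1 of 2. The cathepsin counts were 2 higher and 5 lower without wild type replicate 1.

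Absorptive colonocyte genes had a median of -0.32, with 1 of 29 higher and 6 lower. With the mean of all probe sets 1 was higher and 10 lower (median -0.85). Aqp8, the water channel of surface colonocytes, read 11.87, 12.66 and 12.48 in wild type and 9.87, 10.30 and 10.32 in adjacent tissue, 4.53-fold lower without overlap (-2.18, SE 0.221, limma adjusted p = 0.00025). The peptide hormones Guca2b (11.95, 12.41 and 11.75 against 10.63, 9.84 and 9.94, difference -1.90, adjusted p = 0.00076) and Guca2a (-1.30, 0.0042) fell as well. Slc9a3, the sodium-proton exchanger, read 12.30, 13.07 and 13.08 against 11.24, 9.55 and 12.12 (-1.84, SE 0.479, adjusted p = 0.013), with the pieces of the shared animal at the 2 ends of the adjacent range. Car1 (-0.44, adjusted p = 0.082) lay lower in all 3 adjacent arrays without passing. The 1 rise, Scnn1b, a subunit of the epithelial sodium channel (1.31, adjusted p = 0.029), was lost without wild type replicate 2 (0.12), wild type replicate 3 (0.073), adjacent replicate 1 (0.069) or adjacent replicate 2 (0.092). Without wild type replicate 1 the list had 2 genes higher and 9 lower, without adjacent replicate 3, 2 and 6, and without any of the other 4 arrays, 0 higher and 5 or 6 lower.

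Genes of epithelial identity included no rise. Of 17 measured, 6 fell (median -0.26), beginning with Elf3 (10.09, 9.63 and 9.73 against 8.19, 8.71 and 8.28, difference -1.42, SE 0.252, limma adjusted p = 0.0018), an ETS factor of epithelial differentiation. Cldn7, a tight junction protein, averaged 13.88 in wild type and 12.73 in adjacent tissue without overlap (-1.16, SE 0.172, adjusted p = 0.00075). Klf5, a crypt transcription factor, fell in 2 of 3 probe sets (-0.99, adjusted p = 0.0010 for the kept one). Cdx2, the master regulator of intestinal fate, differed by -0.54 with overlap (adjusted p = 0.20). More of the list fell under other probe set choices, 11 genes (median -0.78) with the mean of all probe sets and 12 (median -0.68) with the most variable one.

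Among secretory lineages 3 of 20 goblet genes fell and none rose (median -0.03). Rep15, of vesicle recycling, read 11.89, 11.34 and 11.77 against 10.75, 10.36 and 10.36 (-1.18, SE 0.299, limma adjusted p = 0.012). Spdef (-1.37, adjusted p = 0.030), the goblet cell transcription factor, lost its call without wild type replicate 2 (0.12), adjacent replicate 2 (0.099) or adjacent replicate 3 (0.070), and Ern2 (-0.92, 0.014) without wild type replicate 2 (0.060). Muc2, the main mucin, read 13.02, 13.46 and 13.26 against 12.61, 12.13 and 12.38 and did not pass (-0.87, adjusted p = 0.18). The goblet list had 1 fall without wild type replicate 2, and 1 rise and 3 falls without wild type replicate 1.

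Of 19 enteroendocrine genes 2 rose and 3 fell (median -0.08). Of the defining markers, Gcg (-0.95, limma adjusted p = 0.017) and Pyy fell, while Chga and Chgb were not among these rises and falls. The hormone Insl5 read 12.69, 12.61 and 12.70 against 11.45, 11.68 and 11.59 (-1.09, SE 0.277, limma adjusted p = 0.012). The factors Isl1 (9.29, 8.08 and 9.55 against 10.64, 10.30 and 11.07, difference 1.69, adjusted p = 0.0027) and Neurod1 (0.84, 0.010, in 1 of 2 probe sets) rose. Pyy (-0.97, adjusted p = 0.028) lost its call without any one of the 3 wild type arrays (0.052 to 0.064), adjacent replicate 1 (0.059) or adjacent replicate 3 (0.097), and with animal as a random block (0.059). The list had 2 rises and 1 fall when wild type replicate 2 or 3 was left out.

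Smooth muscle genes had 3 falls among 20 and no rise (median -0.02), and they depended on single arrays. Wild type replicate 1 stood apart, with a list median 0.93 above the wild type mean against -0.57 and -0.36 for the others. Myl9, the myosin light chain of smooth muscle, read 14.06, 13.41 and 13.43 against 12.62, 12.39 and 11.94 (-1.31, SE 0.332, limma adjusted p = 0.011), and its adjusted p was 0.051 without adjacent replicate 3. The defining marker Des did not pass (-0.84, adjusted p = 0.21). Without wild type replicate 1 the list had 4 rises and 1 fall, without adjacent replicate 2 no rise and 1 fall, and without adjacent replicate 3 neither.

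The lists of ribosomal proteins, oxidative phosphorylation and the unfolded protein response held more falls than rises. Of 18 ribosomal protein genes 8 fell and none rose (median -0.27). With the mean of all probe sets 7 fell (median -0.11). Without probe sets whose suffix marks possible matches to more than 1 transcript, 2 of 9 fell (median -0.099). Rps14 read 13.77, 13.74 and 13.60 against 11.71, 12.04 and 12.10 (-1.75, SE 0.225, limma adjusted p = 0.00040), in both of its probe sets, and Rps19 fell by 1.07 (0.00082). Of 27 genes of oxidative phosphorylation 8 fell and 2 rose (median -0.02), led by Uqcrc1 of respiratory complex III (12.62, 12.55 and 12.22 against 10.96, 11.28 and 11.05, difference -1.37, adjusted p = 0.00040) and Ndufa4 (-0.81, 0.0014). Without wild type replicate 1 or 3, or adjacent replicate 2 or 3, 1 of them rose and 7 or 8 fell. Of 23 genes of the unfolded protein response 7 fell and 1 rose (median -0.16), with Ddit3 (-1.21, adjusted p = 0.0016) and the chaperone Hsp90b1 (-0.76, 0.0042) among the falls and the stress sensor Ern1 (0.81, 0.0021) the rise.

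Of 30 xenobiotic enzymes 5 fell and none rose (median -0.14). The carboxylesterase Ces1f (10.83, 11.92 and 10.64 against 8.79, 9.72 and 9.50, difference -1.79, limma adjusted p = 0.0027) and the glutathione transferases Gsta3 (-1.70, 0.0017) and Gstm1 (13.85, 13.57 and 13.41 against 12.28, 12.36 and 11.96, difference -1.41, 0.00040) led them. Gstm1 fell in 3 of its 4 probe sets. Without wild type replicate 1 the list had 3 rises and 5 falls, without wild type replicate 2 no rise and 3 falls, and without adjacent replicate 1, 2 rises and 3 falls. With animal as a random block there were 3 falls and no rise. Other metabolic lists went both ways, with 3 of 16 glycolysis genes higher and 1 lower and 4 of 18 genes of cholesterol synthesis higher and 3 lower. Over all 46 lists the share of measured genes that passed ran from 4.55% (interferon-induced genes) to 47.1% (B cell genes), around the 27.8% of all genes.

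**Figure D5:**
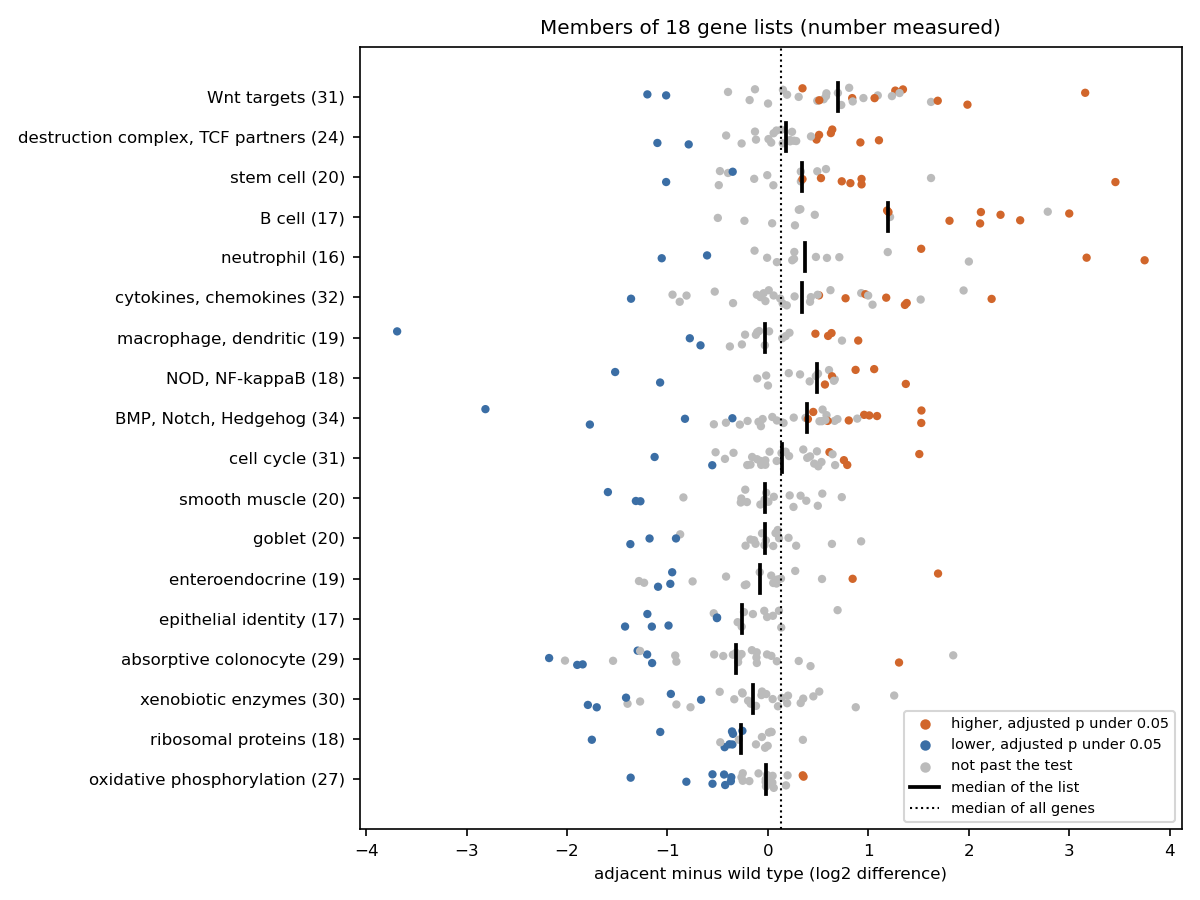
Each point is a gene of 1 of 18 lists (number measured in brackets), placed by its log2 difference between adjacent and wild type arrays, orange where it rose, blue where it fell and grey where it did not pass. Black bars mark list medians, from -0.32 for absorptive colonocyte genes to 1.20 for B cell genes, and the dotted line the median of all genes at 0.13.

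The adjacent arrays were also set against the colon of mice with 1 of the mutations. These comparisons use the same 3 adjacent arrays, so they are not separate evidence. Against APC mutant colon 3154 genes passed (17.3%), and against Olfm4 mutant colon 8 (0.044%). Sdr16c6 differed by 4.72 from wild type, by 2.93 from APC mutant (limma adjusted p = 0.0019) and by 1.12 from Olfm4 mutant colon. For Rabac1 the differences were -5.22, -4.82 and -2.67, for C1qa -3.69, -3.22 and -1.46, and for Id1 -2.81, -2.85 and -1.91, in the same order. Clca4b (3.46, 3.18 and 3.47), Wif1 (3.16, 2.95 and 2.94) and Cxcl2 (2.23, 2.25 and 2.01) lay about as far above each of the 3 groups. None of these genes passed against Olfm4 mutant colon. Not passing there does not show likeness to that colon. The SE of a gene is the same in each comparison, while p-values were adjusted over all genes within each. Clca4b thus passed at 3.46 against wild type and not at 3.47 against Olfm4 mutant colon. On average the bacterial 3′ minus 5′ difference was 4.10 in the adjacent arrays, against 2.64 where only Olfm4 was deleted and 2.16 where only APC was mutated, and its part in these differences was not tested.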

How the data were processed

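Per the labels' protocols, biotin-labelled targets from total RNA of mouse colon were measured on Affymetrix Mouse430_2 arrays. Per the submitters' processing notes the authors made the deposited log2 values with RMA, and Partek 6.5 is listed beside it. The scale was judged from the range of the values (2.56 to 14.96, array medians 6.35 to 6.47). RMA gives the arrays a common distribution, which largely removes a shift that affects most genes. Detection calls were not used, and no genome build is given in the sources used here.

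Of 45101 probe sets 64 are controls, 34945 carried 1 gene symbol in the platform annotation, and 932 with several and 9160 with none were not named. Of 18193 genes, 9010 had more than 1 probe set, and for 3830 the kept set has a suffix marking possible matches to more than 1 transcript. Dim genes stayed in the test.

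With limma 3.58.1 (R 4.3.3), lmFit and eBayes estimated a mean for each of the 5 groups from the 15 arrays together. Calls were made at a Benjamini-Hochberg adjusted p of 0.05, and the procedure was tested on simulated data. The number of arrays limits the precision. The samples compared, the 46 gene lists (945 different genes) and the rule for named genes were chosen with earlier results of these data known. The rule took Olfm4 and Apc, the 12 largest rises and 12 largest falls without overlap, the 10 leading genes each way with at least 2 probe sets called one way, up to 6 members per list with its defining markers, and the 6 widest gaps between opposite probe sets. Ttc5 and C1qc fall outside it. Alternatives concerned the probe set per gene, dim genes, normalization, the variance prior, array weights, the arrays fitted, the animal, each array left out, the bacterial 3′ minus 5′ difference as a covariate, and a fold change of at least 1.5.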

Additional observations from a re-analysis of the deposited data

How the results depend on the processing

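The 5056 genes called became 3184 with only the 6 arrays compared in the fit, 3360 with arrays of an animal averaged, and 0 with the bacterial 3′ minus 5′ difference as a covariate (606 at an unadjusted p under 0.05). Over all probe sets the covariate also left 0 calls, where 10745 stood without it. Leaving out 1 array gave 3448 (without adjacent replicate 3) to 5032 genes (without wild type replicate 1). The bacterial 3′ minus 5′ difference itself ran from 1.94 to 2.21 when 1 array was left out. With the mean of all probe sets 49.1% of called genes rose, against 63.6% with the brightest one and 48.4% with the most variable one. No paired analysis was possible because the wild type and adjacent arrays carry the numbers of different animals. With animal as a random block (consensus correlation 0.350) 4128 genes were called. Of 114 called genes that are named in the report and were followed through the settings, 5 lost their call. Of the 46 gene lists, 7 turned their balance of higher and lower calls with the mean of all probe sets, 6 with the most variable one and 2 with the animal block, and under that block 9 lists had their count of calls reduced by over 1.5 times.

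Some named genes changed direction. With the mean of all probe sets the differences were -0.37 for Apc, -0.52 for Braf, -1.10 for Ctnnb1, -1.07 for Gmfb, -0.86 for Pla2g2f, -0.16 for Smarcc1, -0.56 for Sox4 and -0.33 for Tcf7l1. With the most variable probe set they were -2.0 for Apc, -3.12 for Braf, -0.23 for C1qb, -2.12 for Ctnnb1, -4.34 for Gmfb, -0.60 for Nfkb2, -3.19 for Pla2g2f, -3.13 for Sox4, -1.59 for Tcf7l1 and -2.88 for Ubfd1. C1qb was also at -0.23 without probe sets of ambiguous suffix. The construction of these settings, another probe set of the same gene, is where they differ. With the covariate, none of them past the test, C1qa was at 0.32, Ccl25 at 0.53, Cdc20 at -0.13, Ctsd at 0.075, Ctsf at 0.14, Elf3 at 0.24, Ern1 at -0.018, Gmfb at -0.10, Id1 at 0.53 and Myl9 at 0.040. Likewise Pygo2 was at 0.15, Pyy at 0.13, Rabac1 at 0.19, Relb at 0.18, Rex1bd at 0.15, Rps19 at 0.085, S100a1 at 0.36 and Smad5 at 0.65. The cause of the change with the covariate was not tested. Cyclic loess, array weights, the trend and robust prior and leaving out any 1 array turned no named gene. The signal over background of dim genes was not analysed here.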
